A study of Mus musculus with 2 samples.

Results

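Transcript levels of 10 genes were followed: Hdac6, the tubulin acetyltransferase gene Atat1, the α-tubulin genes Tuba1a, Tuba1b, Tuba1c and Tuba4a, and the β-tubulin genes Tubb5, Tubb4b, Tubb2a and Tubb6. They were picked by symbol from a list drawn up with earlier results of these data known, and each matched 1 of the 23282 rows deposited per library. Wild-type naïve CD4+ T cells came from spleens of C57BL/6 mice used at 7 to 10 weeks of age. The cells were activated through CD3 and CD28 in the presence of TGF-β1, IL-2 and antibodies blocking IFN-γ and IL-4, conditions that induce Treg cells in vitro (iTreg cells), for 1 day. Both cultures received these additions and DMSO, and the TSA-treated Treg cells also received 10 µM Tubastatin A (TSA), an HDAC6 inhibitor that is not to be confused with trichostatin A. The comparison asks how the inhibitor altered gene expression early in Treg differentiation. With 1 library per condition, no difference below has a replicate check and no test between conditions was possible.

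α-Tubulin and β-tubulin form the dimer from which microtubules are built, and the mitotic spindle and the cytoskeleton of a migrating T cell both draw on this pool. Each subunit is encoded by several genes, whose products are called isotypes. ATAT1 acetylates a lysine of α-tubulin inside the microtubule, and HDAC6, a mainly cytoplasmic deacetylase, removes that acetyl group. Cells also adjust tubulin mRNA to the amount of free dimer: TTC5 recognises the first amino acids of a nascent tubulin chain, after which the mRNA is degraded. Tubastatin A blocks the activity of the enzyme, so the level of Hdac6 mRNA does not report whether HDAC6 was inhibited, and acetylation of tubulin itself was not measured in these libraries. The paper measured it in a separate immunoblot, where acetylated α-tubulin rose with the dose of TSA and acetylated histone H3 rose slightly.

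The parts of the coding sequence that these mechanisms act on are given from GENCODE transcripts (release M21, GRCm38), because they show what the isotypes share. In the first lines below, the first 4 codons, which encode the peptide that TTC5 reads, are in capitals, and the codons that follow are in lower case (5′ to 3′).

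Tuba1a: ATGCGTGAGTGCatctccatccat
Tuba1b: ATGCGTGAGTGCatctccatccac
Tuba1c: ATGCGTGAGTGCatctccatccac
Tuba4a: ATGCGCGAGTGCatttcagtccat
Tubb5: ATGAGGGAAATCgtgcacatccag
Tubb4b: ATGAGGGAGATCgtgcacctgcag
Tubb2a: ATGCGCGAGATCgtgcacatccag

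The 3 Tuba1 genes had the same first 4 codons, and Tuba4a used another arginine codon in the second position. The codon of the acetylated lysine, number 40, is in capitals below with its neighbours in lower case, for the 3 Tuba1 genes (identical in this stretch) and for Tuba4a. All 4 α-tubulin genes held a lysine codon there, and the β-tubulin genes listed above did not.

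Tuba1a, Tuba1b and Tuba1c: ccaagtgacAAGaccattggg
Tuba4a: cccagcgatAAGaccattggt

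The deposited values were log2 of a normalized count plus 1, and whole reads could be recovered from them (10845868 on genes in control and 10432698 in TSA-treated Treg cells). The method, QuantSeq, sequences only the 3′ end of an mRNA, so a captured molecule gives about 1 read whether long or short, and levels of different genes can be compared as CPM (reads scaled to a common total). A change is the TSA value minus the control value on the log2 scale. A ratio of reads, TSA over control with the authors' scaling, is given with an exact Clopper-Pearson 95% interval, which sets library against library, not condition against condition, and holds only the error of counting. Past 2-fold was the call, and the background is formed by the 12164 genes for which 1 library or both held 10 reads or more. Of these, 14.7% were past 2-fold in either direction, 28.0% had an interval wholly below no change and 28.1% had one wholly above it. Because this depth separates so many genes, an interval on 1 side of no change is common, and the size of a change says more.

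All 10 T cell markers examined were present (at least 602 reads in control and 794 in TSA-treated Treg cells), and Foxp3, the Treg transcription factor, had 1633 and 965 reads. Markers of other cells were scarce: B cell markers summed to 16 and 27 reads, myeloid markers to 60 and 49, CD8 T and NK cell markers to 157 and 168, and platelet and erythroid markers to 89 and 107. Pax5, C1qa, C1qb and Klrb1c were at 0 in both libraries, and the part of such cells in the differences below was not tested. Rn45s, the ribosomal RNA precursor, took 8.72% and 9.63% of the reads. In such bulk samples, fewer cells of a type and less RNA per cell cannot be told apart.

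None of the 10 genes was past 2-fold, against the 14.7% of all genes tested. Such changes were common under 50 normalized counts, where 40.6% of genes were past 2-fold higher and 8.75% lower. They were rare from 1000 to 5000 (0.159% and 0.582%) and at 5000 or more (0.357% and 0.714%), where most of the tubulins lie. The absence of calls therefore says little for these tubulins. For 7 genes, all of them tubulins, the interval lay below no change, for Atat1 and Tubb2a it lay above, and for Hdac6 it included no change, where 28.0% and 28.1% of all genes tested lay below and above. Apart from Tubb6, the genes with an interval below lie at 1000 normalized counts or more, where that share was 54.5% (1000 to 5000, median change -0.12) and 57.9% (5000 or more, median change -0.09), so their count says little and the sizes are read against these levels. The median change of the 10 genes was -0.27, and that of the 8 tubulins was -0.37, beside 0.01 over all genes tested. The genes at the top of the range of levels, Tubb5 and Tuba1b, had ratios of 0.632 and 0.663.

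**Figure D1:**
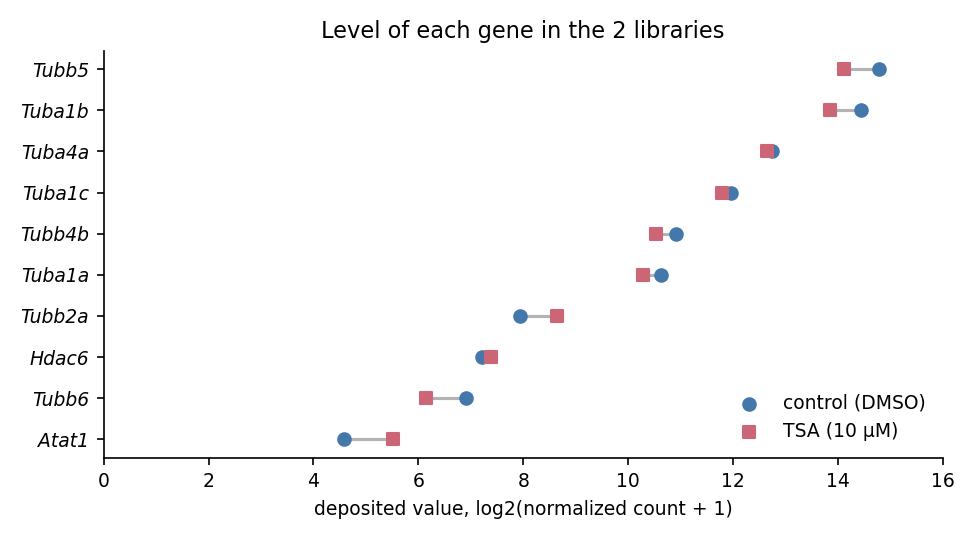
Deposited value, log2(normalized count + 1), of each gene in the control library (circles) and the TSA library (squares), 1 library per condition, joined by a line. Levels ran from 4.59 for Atat1 to 14.79 for Tubb5 in the control library, and the TSA value was the lower one for 7 genes and the higher one for Atat1, Hdac6 and Tubb2a.

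Hdac6 (chrX:7930120-7947889, minus strand) encodes the target of the inhibitor. It had 146 reads in control and 166 in TSA-treated Treg cells, deposited values of 7.21 and 7.38. The change was 0.17. The ratio of 1.13 had an interval of 0.896 to 1.42, so no difference between the libraries was detectable at this depth. The interval lies within 2-fold, but it covers counting error only and not the spread between cultures. At 13.5 and 15.9 CPM, Hdac6 ranked 7206th by level among the genes tested.

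Atat1 (chr17:35897595-35910075, minus strand), the gene of the acetyltransferase that acts on the same lysine, was scarcer. It had 23 reads in control and 45 in TSA-treated Treg cells, or 2.12 and 4.31 CPM, well above the 3 reads (0.277 and 0.288 CPM) taken as the smallest amount that the depth could show. The ratio was 1.94, with an interval of 1.15 to 3.355, and the log2 change of 0.93 fell just short of the call, which it passed under scaling by total reads without Rn45s. Scarce genes were mostly higher in the TSA library. Among the 2765 genes tested with a mean normalized count under 50, the median change was 0.69 and 71.8% were higher in the TSA library, and 1180 of these genes had a larger change than Atat1. Many of them passed the filter only through the TSA library, where they are high. Atat1 had 10 reads or more in both libraries, and among the 1513 genes of its level that did, the median change was 0.23, 63.3% were higher, and 284 (18.8%) had a larger change than Atat1. This narrower comparison was added after the data were seen. The control library held 6.35 Hdac6 reads per Atat1 read and the TSA library 3.69, but the ratio of these ratios, 0.582, had an interval of 0.320 to 1.04, which includes no difference. An antisense gene, Gm16279, lies on the opposite strand of Atat1. Whether the counting used strand is not given in the sources used here, so reads of overlapping genes on opposite strands cannot be told apart, for Atat1 and for the genes named below.

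Tuba1b (chr15:98931425-98934565, minus strand), the main α-tubulin gene of these cells, gave 22039 reads in control and 14756 in TSA-treated Treg cells, or 2032 and 1414 CPM. The change was -0.59 and the ratio 0.663 (0.649 to 0.677). Its large read count makes the counting error small, but not the unknown spread between cultures. Among the 280 genes with a mean normalized count of 5000 or more, where the median change was -0.09 and 67.1% were lower, 12 had a lower change than Tuba1b.

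Tuba4a (chr1:75214228-75219865, minus strand), the α-tubulin gene whose product lacks the encoded C-terminal tyrosine, came next by level. It gave 6858 reads in control and 6418 in TSA-treated Treg cells, or 632 and 615 CPM, with a ratio of 0.927 (0.8955 to 0.959). The change of -0.11 was close to the median of its level, and 131 of the 280 genes of that level had a lower one. The call by the interval was lost under scaling by total reads, where the interval ran from 0.940 to 1.01, and under total reads without Rn45s, where it ran from 0.950 to 1.02. Tuba4a overlaps Stk16, a kinase gene on the opposite strand, and all 426 stretches of 75 bases in the last 500 bases of its transcript also lie, as the reverse complement, in a transcript of Stk16. Stk16 had 3604 and 3458 reads, a ratio of 0.950 (0.9065 to 0.996).

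Tuba1c (chr15:99029891-99038110, plus strand) gave 3994 reads in control and 3543 in TSA-treated Treg cells, a change of -0.19 and a ratio of 0.878 (0.839 to 0.919). Tuba1a (chr15:98949837-98953703, minus strand), best known from neurons, gave 1568 and 1246 reads, a change of -0.35 and a ratio of 0.787 (0.730 to 0.848). Of the 1891 genes from 1000 to 5000 normalized counts, 737 had a lower change than Tuba1c and 340 a lower one than Tuba1a. The order of the 4 genes by level, Tuba1b, Tuba4a, Tuba1c and Tuba1a, was the same in both libraries.

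The Tuba1 genes share sequence near their 3′ ends, where QuantSeq reads fall. In the last 500 bases of the longest protein-coding transcript, 53.8% of the stretches of 75 bases of Tuba1a, 61.5% of those of Tuba1b and 66.2% of those of Tuba1c occurred in transcripts of other genes on the same strand, in each case the other Tuba1 genes and pseudogenes. The nearest shared stretch ended 197, 164 and 144 bases from the transcript end on the same strand. On the opposite strand, 53.8%, 61.5% and 45.1% of the stretches of Tuba1a, Tuba1b and Tuba1c occurred in a transcript of AC157548.1, the nearest 197, 13 and 144 bases from the end, so without strand not even reads close to the poly(A) tail of Tuba1b can be called gene-specific. Gm49450, a read-through gene, also overlaps Tuba1a and Tuba1b on their strand. How such reads were assigned is not given in the sources used here, so the split among the Tuba1 genes is uncertain. Their sum does not depend on that split within the family: 27601 reads in control and 19545 in TSA-treated Treg cells, a ratio of 0.701 (0.688 to 0.714).

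Tubb5 (chr17:35833921-35838306, minus strand), the main β-tubulin gene, was the most abundant of the 10 genes and ranked 31st of the genes tested. It gave 28109 reads in control and 17929 in TSA-treated Treg cells, or 2592 and 1719 CPM, a change of -0.66 and a ratio of 0.632 (0.620 to 0.6435). Among the 280 genes with a mean normalized count of 5000 or more, 7 had a lower change. No stretch of 75 bases in the last 500 bases of its transcript was shared with another gene, so unlike Tuba1b its count has no close copy to exchange reads with in the transcripts searched. The Tubb5 reads per Tuba1b read went from 1.275 to 1.215, a ratio of 0.953 (0.926 to 0.980).

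Tubb4b (chr2:25222160-25224702, minus strand), a broadly expressed β-tubulin gene, gave 1924 reads in control and 1480 in TSA-treated Treg cells, a change of -0.39 and a ratio of 0.762 (0.711 to 0.8155). Its end overlaps Fam166a on the opposite strand, with 11% of its stretches of 75 bases in a Fam166a transcript, and Fam166a had 1639 and 1241 reads, a ratio of 0.750 (0.696 to 0.808). Another 19.7% occurred in pseudogenes of Tubb4b on the same strand. Tubb6 had few reads, 119 in control and 70 in TSA-treated Treg cells. Its change of -0.77 was the lowest of the 10, with a ratio of 0.582 whose interval, 0.427 to 0.789, was the widest on the log scale among the 8 tubulins. Of the 1891 genes from 1000 to 5000 normalized counts, 251 had a lower change than Tubb4b. Of the 2828 from 50 to 200, 149 had a lower one than Tubb6.

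Tubb2a (chr13:34074274-34078007, minus strand) went the other way. It gave 242 reads in control and 402 in TSA-treated Treg cells, or 22.3 and 38.5 CPM, a change of 0.72 and a ratio of 1.645 (1.40 to 1.94). At its level such a change was uncommon: among the 4400 genes with a mean normalized count from 200 to 1000, the median change was -0.04 and 113 had a higher change than Tubb2a. Tubb2b (chr13:34126748-34130466, minus strand), the close copy of Tubb2a on the same chromosome, gave 129 and 252 reads, a ratio of 1.93 (1.56 to 2.41). Of the 75-base stretches at the end of Tubb2a, 33.1% occurred in transcripts of Tubb2b or a Tubb2a pseudogene, whereas those in the last 500 bases of Tubb2b did not occur elsewhere. The sum of both genes, 371 reads in control and 654 in TSA-treated Treg cells, had a ratio of 1.75 (1.53 to 1.99).

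**Figure D2:**
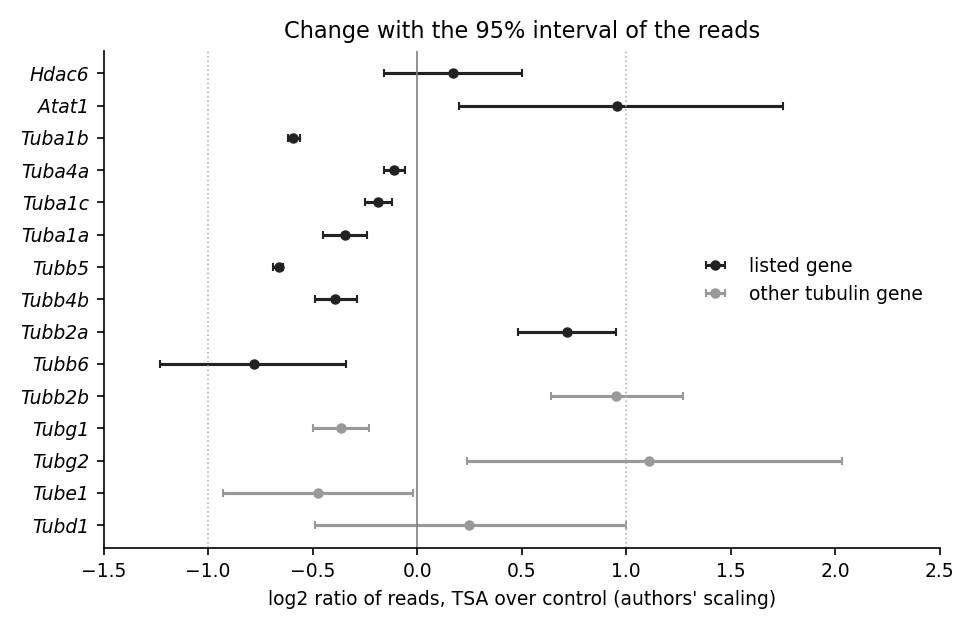
Log2 ratio of reads, TSA over control with the authors' scaling, for the 10 genes (black) and for other tubulin genes (grey), with exact 95% intervals that cover counting error only; dotted lines mark 2-fold. The intervals of Tuba1b and Tubb5 lie below zero and are narrow, those of Tubb2a, Tubb2b, Tubg2 and Atat1 lie above it, and that of Hdac6, -0.16 to 0.50, spans it. Tubb3, with a ratio of 26.7 (4.41 to 1095), lies beyond the axis and is not drawn.

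The upstream sequences of Tubb4b and Tubb2a, as examples of a β-tubulin gene with the lower and 1 with the higher value in the TSA library, are shown as RefSeq has them (250 bases before the annotated start, GRCm38.p6, 5′ to 3′ on the strand of the gene). Capitals mark matches, on either strand, to CCAAT (the CCAAT box), TTTGAA (an element found in promoters of late cell cycle genes) and GGGCGG (the GC box). These motifs do not overlap in the windows shown.

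Tubb4b chr2:25224703-25224952 (minus strand): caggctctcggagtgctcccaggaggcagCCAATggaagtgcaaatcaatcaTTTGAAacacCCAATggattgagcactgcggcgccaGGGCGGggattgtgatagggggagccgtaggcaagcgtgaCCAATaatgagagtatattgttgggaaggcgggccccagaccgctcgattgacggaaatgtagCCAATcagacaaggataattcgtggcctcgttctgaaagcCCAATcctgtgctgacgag
Tubb2a chr13:34078009-34078258 (minus strand): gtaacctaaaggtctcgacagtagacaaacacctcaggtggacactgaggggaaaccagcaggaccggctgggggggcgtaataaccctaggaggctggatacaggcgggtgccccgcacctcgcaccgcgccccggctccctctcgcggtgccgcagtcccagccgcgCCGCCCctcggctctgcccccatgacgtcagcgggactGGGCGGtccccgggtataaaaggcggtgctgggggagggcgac

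The Tubb4b window held 5 CCAAT boxes, 1 TTTGAA and 1 GGGCGG. The Tubb2a window held 2 GGGCGG and no match to the other motifs, and the Tubb5 window (chr17:35838302-35838551) held 2 CCAAT boxes. Among the other genes with an interval below no change, Tuba1a held 1 CCAAT box and 1 GGGCGG, and Tuba1c held 1 CCAAT box. Tuba1b and Tuba4a held no CCAAT box and 2 GGGCGG each. The Tubb6 window is not reported here. Atat1, like Tubb2a on the higher side, held no CCAAT box and 2 GGGCGG, and Hdac6, whose interval included no change, held 2 CCAAT boxes, 1 TTTGAA and 4 GGGCGG. Of the 32851 windows of the same 250 bases in the table, 33.8% held CCAAT, 2.79% held at least 3 of them, 16% held TTTGAA and 32.7% held GGGCGG. Outside the 10 genes, the window of Tubb3, with the higher value in the TSA library (1 and 27 reads), held 1 CCAAT box and 2 GGGCGG. The CCAAT box was thus not confined to genes with the lower value, and Tuba1b, among the lower genes, lacked it. Tubb4b, shown in full, held the most CCAAT boxes of the windows reported here. Whether these motifs go with the direction of change was not tested. A match describes the letters only.

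The sums show how the pool of tubulin mRNA as a whole differed. The 4 α-tubulin genes summed to 34459 reads in control and 25963 in TSA-treated Treg cells, 0.318% and 0.249% of all reads, a change of -0.42 and a ratio of 0.746 (0.734 to 0.758). The 4 β-tubulin genes summed to 30394 and 19881 reads, 0.280% and 0.191% of all reads, a change of -0.63 and a ratio of 0.648 (0.636 to 0.659). These sums are set mainly by Tuba1b and Tubb5.

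The α-to-β ratio was examined after the values had been seen. It was 1.13 in control and 1.31 in TSA-treated Treg cells, which differed by a factor of 1.15 (1.12 to 1.18). With all α- and β-tubulin genes of the table in the sums, the factor was 1.14. This ratio is free of the scaling between libraries, but not of Stk16 reads counted for Tuba4a if strand was not used. Without Tuba4a, the Tuba1 sum had a ratio of 0.701, beside 0.648 for the β-tubulin sum.

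The make-up of each pool also differed between the libraries. Tuba1b provided 64.0% of the α-tubulin reads in the control library (63.45 to 64.5, exact binomial 95% interval) and 56.8% in the TSA library (56.2 to 57.4). Tuba4a went from 19.9% (19.5 to 20.3) to 24.7% (24.2 to 25.25), with odds 1.32 times as high (1.27 to 1.37). Tuba1c went from 11.6% to 13.65%, whereas Tuba1a, at 4.55% and 4.80%, had an odds ratio of 1.06 whose interval, 0.979 to 1.14, included no difference. The share of Tuba4a can also be read against the Tuba1 sum, which the shared 3′ ends do not touch within that family: 0.2485 Tuba4a reads per Tuba1 read in control and 0.328 in TSA-treated Treg cells. Both readings hold Stk16 reads if the counting did not use strand.

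The β-tubulin pool was dominated by 1 gene. Tubb5 held 92.5% of the β-tubulin reads in the control library (92.2 to 92.8) and 90.2% in the TSA library (89.8 to 90.6). Tubb2a went from 0.796% (0.699 to 0.903) to 2.02% (1.83 to 2.23), with odds 2.57 times as high (2.185 to 3.03). Tubb4b went from 6.33% to 7.44%. For Tubb6, at 0.3915% and 0.352%, the odds ratio of 0.899 had an interval of 0.659 to 1.22, so that its share could not be told apart between the libraries although its level was lower.

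**Figure D3:**
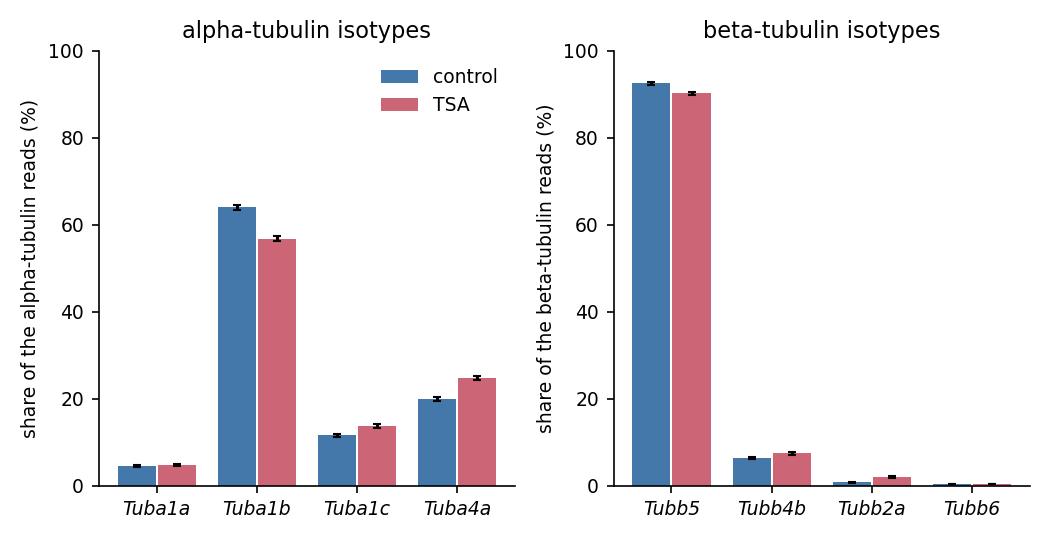
Share of each gene in the reads of the 4 α-tubulin genes (left) and of the 4 β-tubulin genes (right), in percent, in the control and the TSA library; error bars are exact binomial 95% intervals, counting error only. Tuba1b and Tubb5 hold the greatest shares in both libraries, with 56.8% and 90.2% in the TSA library against 64.0% and 92.5% in the control library, and Tuba4a stands higher in the TSA library, 24.7% against 19.9%. Without strand, Tuba4a reads cannot be told from Stk16 reads.

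Among 12 other tubulin genes of the table, 6 passed the filter on reads, and their median change was 0.59. That median includes Tubb3, Tubg2 and Tubd1, which lie under 50 normalized counts, where the median change of all genes tested was 0.69. No direction is given for this group. Tubb3, a β-tubulin gene used as a marker of neurons, and Tubg2, a γ-tubulin gene, were past 2-fold. Tubb3 had 1 read in control and 27 in TSA-treated Treg cells, a ratio of 26.7 with an interval of 4.41 to 1095, and Tubg2 had 17 and 37 reads, a ratio of 2.155 (1.18 to 4.08). Tubb3 passed the filter only through the TSA library, and both lie under 50 normalized counts, where 40.6% of genes were past 2-fold with the higher value in the TSA library, and 16.5% of those with 10 reads or more in both libraries, as Tubg2 had. Tubg1, the main γ-tubulin gene, which nucleates microtubules, had 1060 and 831 reads, a ratio of 0.776 (0.708 to 0.851). Tubd1 and Tube1, the δ- and ε-tubulin genes of the centriole, had ratios of 1.19 (0.7115 to 1.997) and 0.720 (0.524 to 0.985). Of the 6 genes not tested, Tuba3a, Tuba3b and Tubal3 had no read, and Tubb1 (0 and 1 reads) and Tuba8 (2 and 0 reads) were at or under the floor in both libraries, while Tubb4a had 1 and 8 reads.

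Tubulin is folded by prefoldin and the chaperonin CCT and then by the tubulin cofactors. Of 22 genes of this route and of TTC5, none was past 2-fold, 11 had an interval below no change and 2 one above it, and the median change was -0.08. Most of these genes lie at 1000 normalized counts or more, where 54.5% (up to 5000) and 57.9% (from 5000) of all genes had an interval below, so the count is near its background. The CCT subunit genes were abundant: Cct7 had 10189 and 8387 reads, a ratio of 0.815 (0.792 to 0.839), Cct8 8247 and 8012 reads, a ratio of 0.962 (0.933 to 0.992), and Cct3 6113 and 6251 reads, a ratio of 1.01 (0.977 to 1.05). Scaling by total reads left 6 below and 5 above, so no direction is given for this group. Ttc5, the gene of the factor that reads nascent tubulin, was named after its values were seen: it had 58 reads in control and 99 in TSA-treated Treg cells, a ratio of 1.69 (1.21 to 2.38). At its level (50 to 200 normalized counts), 57.4% of all genes were higher and 29.1% had an interval above no change.

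Other enzymes that modify tubulin add or remove the C-terminal tyrosine or side chains of glutamate or glycine, and SIRT2 removes the same acetyl group as HDAC6. Of 25 genes of such enzymes and their subunits 24 were in the table, 8 of them without a read, and 15 were tested, with a median change of -0.11. Past 2-fold, all with the higher value in the TSA library, were Vash1 (15 and 86 reads, ratio 5.68, 3.26 to 10.6), which encodes a carboxypeptidase that removes the tyrosine, Agbl4 (3 and 35 reads), Ttll1 (22 and 46 reads) and Ttll9 (3 and 18 reads). Of all genes tested, 11.5% were past 2-fold with the higher value in the TSA library and 3.15% with the lower one. Agbl4, Ttll1 and Ttll9 lie under 50 normalized counts, where the first share was 40.6% (16.5% of the genes with 10 reads or more in both libraries, as Ttll1 had), and Vash1 just above, where it was 8.42%. Agbl4 and Ttll9 passed the filter only through the TSA library. Those with the highest levels were Agbl5 (1539 and 1386 reads, ratio 0.892), Ttll3 (702 and 600 reads, ratio 0.846) and Ttll12 (580 and 542 reads, ratio 0.925). Sirt2 and Ttl, the gene of the ligase that restores the tyrosine, were named after their values were seen. Sirt2 had 402 and 346 reads, a ratio of 0.852 (0.736 to 0.986), so the other known deacetylase of this lysine, like Hdac6, was within 2-fold. Ttl had 208 and 146 reads, a ratio of 0.695 (0.559 to 0.863).

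HDAC6 belongs to the zinc-dependent deacetylases. Of the 10 other genes of this kind, all tested, Hdac8 (85 and 179 reads, ratio 2.085, 1.60 to 2.73), Hdac9 (1 and 27 reads) and Hdac11 (2 and 11 reads) were past 2-fold with the higher value in the TSA library. The median change of 0.24 includes Hdac9 and Hdac11, so no direction is given for this group. Hdac9 and Hdac11 passed the filter only through the TSA library and lie under 50 normalized counts, where 40.6% of all genes were past 2-fold in that direction. Hdac8 lies between 50 and 200, where 8.42% were. Hdac7, the most abundant, had 5823 and 5905 reads, a ratio of 1.004 (0.968 to 1.04). Hdac2 had 1766 and 1404 reads, a ratio of 0.787 (0.733 to 0.845), and Hdac1 1315 and 1836 reads, a ratio of 1.38 (1.29 to 1.485).

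HDAC6 also acts on or binds HSP90, cortactin, peroxiredoxins and factors of the aggresome route. Of 13 genes of such proteins 12 were tested, with a median change of 0.13. Bag3, a co-chaperone of that route, was past 2-fold, with 30 and 83 reads, a ratio of 2.74 (1.785 to 4.31), at a level (50 to 200 normalized counts) where 8.42% of all genes were past 2-fold in that direction. The HSP90 genes, Hsp90ab1 (86463 and 73786 reads) and Hsp90aa1 (19453 and 13271 reads), had ratios of 0.845 and 0.6755.

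Of 42 genes for microtubule stability and nucleation, 34 were tested, with a median change of 0.09; 12 had an interval above and 8 one below no change, where 28.1% and 28.0% of all genes tested did. Scaled by total reads without Rn45s the counts were 17 and 3, where 34.9% and 20.6% of all genes tested did. Map1a (25 and 56 reads), Mapre3 (3 and 17 reads) and Map6 (0 and 14 reads) were past 2-fold with the higher value in the TSA library. All 3 lie under 50 normalized counts, where 40.6% of all genes were past 2-fold in that direction (16.5% of those with 10 reads or more in both libraries, as Map1a had). Mapre3 and Map6 passed the filter only through the TSA library. Map6 was 4.62-fold higher against a floor of 3 reads, and its interval began at 3.28. Kif2c, a kinesin that takes microtubules apart at the kinetochore, was past 2-fold with the lower value, 286 and 127 reads, a ratio of 0.440 (0.354 to 0.544), against 1.34% of all genes of its level (200 to 1000). The abundant genes of the group, Mapre1 (4723 and 5359 reads), Stmn1 (2673 and 2887 reads) and Map4 (1256 and 1207 reads), had ratios of 1.12, 1.07 and 0.9515. Stmn1 encodes stathmin, which binds free tubulin dimers.

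Dividing cells make much tubulin, and genes of the cell cycle differed between these libraries. Of 51 G2/M genes measured (the Seurat list without Tubb4b, which it also holds), 18 were past 2-fold, all with the lower value in the TSA library, and the median change was -0.84, whereas 3.15% of all genes tested were past 2-fold with the lower value. With upper-quartile scaling, and equally with total reads, 16 were past 2-fold. The 18 were Hmgb2, Mki67, Birc5, Cenpe, Nusap1, Cenpf, Ckap2l, Cdc20, Tpx2, Ube2c, Kif11, Gtse1, Ndc80, Hmmr, Kif2c, Bub1, Psrc1 and Nek2, with ratios from 0.312 (Ube2c) to 0.497 (Hmgb2). Top2a, Smc4 and Anp32e, the most abundant of the list, had ratios of 0.537, 0.634 and 1.06. The list's summed level was 5959 CPM in the control library and 4076 CPM in the TSA library. Of 43 S phase genes, 4 (Rrm2, Ccne2, Clspn and E2f8) were past 2-fold, also with the lower value, the median was -0.31 and the summed levels were 7435 and 6087 CPM. The abundant S phase genes Mcm7, Nasp and Mcm6 had ratios of 0.799, 0.769 and 0.887. The part of these differences in the lower tubulin levels was not tested. Tubb4b, itself on the G2/M list, had a change of -0.39, nearer to no change than the median of that list, and Tubb5 and Tuba1b, with -0.66 and -0.59, also lay between the list's median and no change.

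**Figure D4:**
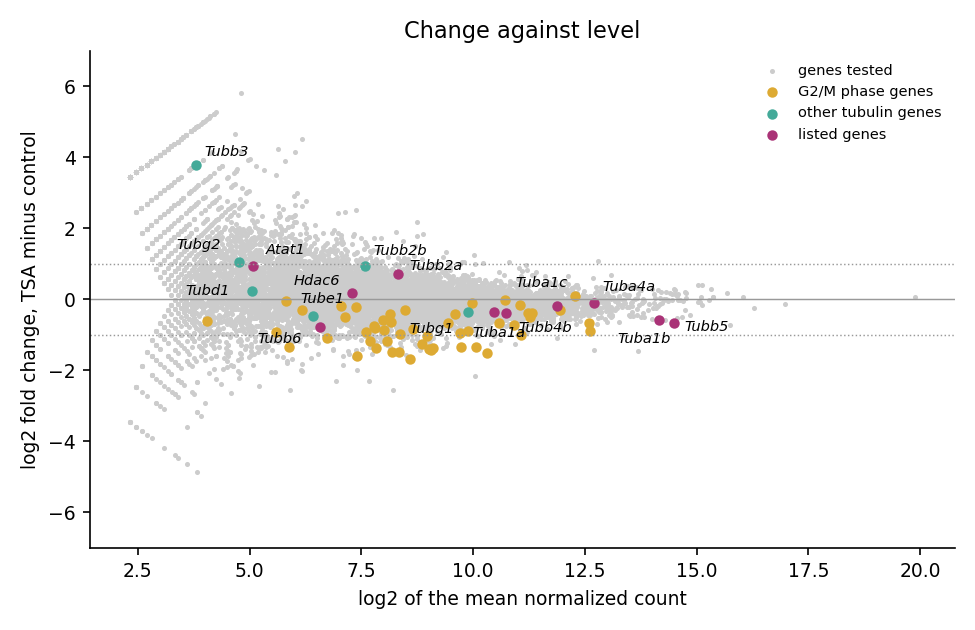
Log2 fold change, TSA minus control, against the log2 of the mean normalized count for the 12164 genes tested (grey), with G2/M phase genes, other tubulin genes and the 10 genes marked; dotted lines mark 2-fold. Tubb5 and Tuba1b have 7 and 12 of the 280 genes of their level below them, Atat1 lies among scarce genes, whose spread is wide, and 50 of the 51 G2/M genes lie below zero.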

How the data were processed

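Total RNA was made into QuantSeq libraries (single-end 75-nt reads) and analysed with ExDEGA by the authors. The submitters' processing notes list mm10, Bowtie2 and bedtools, and their versions, roles and the normalization are not given in the sources used here. The deposited values were on a log2 scale, that is log2(normalized count + 1), and each library had 1 value per row. Back-transformed values fell on steps of 1.005 (control) and 0.9951 (TSA), and 99.72% and 99.86% of the genes with 1 to 300 reads lay within 0.1 of a whole read. Larger counts are whole reads after rounding. In the control library, 1940 rows held a value above 0 but under the size of a read (at most 0.016) and were read as 0 reads.

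A gene was tested against 2-fold where 1 library or both held 10 reads or more. Intervals are exact Clopper-Pearson (95%). The depth could show 3 reads. Limits cover counting error only, since QuantSeq reads without molecular identifiers are not independent molecules. No p-value was computed, and genes were not ranked by likeness of pattern because 1 difference per gene was available. The 10 genes and all lists (other tubulins, tubulin folding and autoregulation, tubulin-modifying enzymes, zinc-dependent deacetylases, HDAC6 substrates and partners, microtubule stability and nucleation, markers) were chosen with earlier results of these data known. All 10 genes are named. From each of the other lists, genes past 2-fold and the 3 with the highest mean are named, apart from 1 gene not reported here. Markers are given as sums. G2/M and S phase lists came from Seurat 5.3.0, with human symbols written as mouse symbols.

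Alternatives were scaling (median of ratios, total reads, total reads without Rn45s, upper quartile), pseudocounts of 0.1 and 5, the filter, 1.5-fold and the genes in each denominator. The α-to-β ratio with all genes, the calls by interval under each scaling, the folding list under total reads, and the comparison of Atat1 with genes that had 10 reads in both libraries were added after the data were seen. Gene positions and transcripts were from GENCODE M21 and upstream sequences from RefSeq (GRCm38.p6). Shared stretches were searched in transcripts, not in the genome. The steps were tested on simulated data. Python 3.11.15, numpy 2.4.6, pandas 2.3.3, scipy 1.17.1, matplotlib 3.10.9 and R 4.3.3 were used.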

Additional observations from a re-analysis of the deposited data

How the results depend on the processing

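With 1 library per condition, no replicate could be left out, and the spread between cultures is unknown. No paired analysis was possible because each condition has a single library. The median of ratios and both pseudocounts left the summed changes within their counting intervals. The summed α-tubulin change of -0.42 became -0.35 when scaled by total reads, -0.34 by total reads without Rn45s and -0.38 by the upper quartile, and the summed β-tubulin change of -0.63 became -0.56, -0.54 and -0.58. These scalings moved every gene by 0.070, 0.085 and 0.043 on the log2 scale. The count of the 10 genes past 2-fold was 0, but 1 (Atat1) by total reads without Rn45s and 5 at 1.5-fold. By total reads without Rn45s, 1524 of the 12164 genes tested were past 2-fold higher and 318 lower, against 1400 and 383 as deposited. The share of all genes past 1.5-fold is not given here, so the 5 has no background. The calls by interval kept their side in each scaling, except Tuba4a by total reads (0.940 to 1.01) and by total reads without Rn45s (0.950 to 1.02). Of 60 alternative values for single genes, 50 moved by less than their counting interval, 10 moved by more and 0 changed direction. The depth limits Atat1 and Tubb6 most. Reads shared near the 3′ ends limit the split among Tuba1a, Tuba1b and Tuba1c, and the overlap with Stk16 limits Tuba4a.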
